A study of Mus musculus with 11 samples.

Results

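The subject here is the Alpk1-Tifa signalling axis in single nuclei of mouse cortex: the kinase Alpk1, the adaptor Tifa, and the proteins Traf6, Traf2, Tab2 and Map3k7 through which the pair is known to signal. The 6 genes were selected by name among all 31053 genes of the count matrices, and all 6 were found. Alpk1 and Tifa were chosen because they were already known to be higher in P301S mice of this series and because they lie side by side on chromosome 3. Their levels in P301S-carrying against non-transgenic mice are therefore given as a description, with no test. The other 4 genes were tested, although they too were chosen with earlier results of these data known.

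The study asked how NF-κB signalling in microglia acts in a tauopathy model, and measured nuclear RNA in the cortex of 11 mice with 1 library per mouse. The groups were 4 Ikbkb+/+ mice without the tau transgene (9.8 to 10.85 months old), 3 Ikbkb+/+;P301S+ mice (9.15 to 10.75 months), 2 Ikbkb-/-;P301S+ mice (8.39 and 9.15 months) and 2 IkbkbCA;P301S+ mice (9.8 and 10.85 months). P301S+ marks the PS19 transgene, human mutant tau under the mouse prion promoter, which all 7 mice of the last 3 groups carried. Per the study's methods every group had received tamoxifen. The labels give all mice as female, whereas the methods name male mice for RNA-seq. Each library held 62143 to 118928 UMIs of Xist, the transcript of the inactive X chromosome, and 13 to 30 of the Y-linked Ddx3y, the pattern of female tissue. The mice came from a line with floxed Ikbkb, the gene of the kinase IKKβ (6 mice), and a line with a conditional, constitutively active IKKβ (5 mice). The control and Ikbkb+/+;P301S+ mice carried these conditional alleles without Cre. The Ikbkb-/- and IkbkbCA mice also carried one Cx3cr1 CreERT2 allele, a knock-in that recombines in microglia and other Cx3cr1-expressing cells and replaces a Cx3cr1 copy. Cre and the change of IKKβ cannot be told apart in these groups.

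Alpk1 is a cytosolic kinase that is activated by bacterial sugar nucleotides such as ADP-heptose. It phosphorylates Tifa, which then oligomerises and gathers the ubiquitin ligases Traf6 and Traf2. Tab2 reads the ubiquitin chains and brings in Map3k7 (TAK1), the kinase that activates IKKβ, and in the brain this route to NF-κB is best known from innate immune cells such as microglia.

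Alpk1 lies on the minus strand of chromosome 3 (GRCm38 chr3:127670310-127780527) and Tifa on the plus strand (chr3:127789805-127832164). The genes point away from each other and their starts are 9.28 kb apart. The end of Tifa overlaps Ap1ar, on the opposite strand (chr3:127807007-127837523). The other members lie elsewhere: Traf6 (chr2:101678429-101701669) and Traf2 (chr2:25517982-25546940) on chromosome 2, Tab2 on chromosome 10 (chr10:7905653-7956230) and Map3k7 on chromosome 4 (chr4:31964097-32023467). Because Alpk1 and Tifa share an upstream interval, the 250 bases before the start of each are printed below, from the RefSeq table for GRCm38.p6 and written 5′ to 3′ on the gene's own strand. Tifa has 2 listed starts. Capitals mark a match to the NF-κB (κB) consensus motif, a site of 10 bases, searched on both strands.

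Alpk1 (chr3:127780528-127780777, minus strand): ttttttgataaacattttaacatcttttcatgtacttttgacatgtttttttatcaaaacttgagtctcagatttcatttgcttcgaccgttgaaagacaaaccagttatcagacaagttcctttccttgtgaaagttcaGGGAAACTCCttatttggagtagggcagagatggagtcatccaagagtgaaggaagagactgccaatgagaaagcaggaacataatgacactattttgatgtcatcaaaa

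Tifa, first start (chr3:127789622-127789871, plus strand): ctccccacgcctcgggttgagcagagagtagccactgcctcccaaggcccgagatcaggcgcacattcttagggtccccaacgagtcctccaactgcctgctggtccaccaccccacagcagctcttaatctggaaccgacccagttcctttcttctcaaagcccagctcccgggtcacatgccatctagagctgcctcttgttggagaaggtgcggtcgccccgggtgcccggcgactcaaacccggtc

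Tifa, second start (chr3:127790407-127790656, plus strand): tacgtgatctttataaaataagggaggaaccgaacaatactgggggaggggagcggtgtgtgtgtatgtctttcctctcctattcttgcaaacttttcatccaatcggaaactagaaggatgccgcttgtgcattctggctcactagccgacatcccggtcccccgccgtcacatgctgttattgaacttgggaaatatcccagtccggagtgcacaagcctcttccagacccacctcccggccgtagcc

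The 2 genes do not share this sequence. The window before Alpk1 held 1 match, 110 bases upstream of the start, and the windows before Tifa held none. A further match, GGGATTTTCC, lay 33 bases downstream of the second Tifa start. Of the other members Map3k7 held a match upstream of its start, and Traf2, Traf6 and Tab2 held none. Of 32851 RefSeq promoters searched over 300 bases (250 before the start and 50 after), 8.46% held a match, and 7.25% held one in the 250 upstream bases. The upstream G+C content was 35.6% for Alpk1 and 62% and 52% for the Tifa starts. A match is a string of letters, and no binding was measured.

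Counts of UMIs, the tags that mark single captured molecules, were summed per mouse over 9 classes of nuclei named from marker genes, and levels are given as CPM, counts divided by the total of that class and mouse on the usual per-megacount scale, with the total adjusted by TMM, edgeR's correction for library composition. Each library had between 7500 and 12315 barcodes and between 72007219 and 93205362 UMIs, and 103194 nuclei were clustered. A cluster of 5840 nuclei led by mitochondrial genes, with a median of 956 UMIs, was left unnamed and entered no class, although 5 excitatory neuron markers were raised in it. Between 15 and 45 barcodes were shared by each pair of libraries, at most 0.43% of the smaller. The classes used most below are excitatory neuron-like (38556 nuclei), astrocyte-like (6962) and microglia-like (4466), the last with 195 to 723 nuclei per mouse. All 10 microglia markers used for naming were detected in microglia-like nuclei and summed to 7369 to 10872 CPM per mouse, against 28.5 to 35.7 CPM in excitatory neuron-like nuclei. Border macrophage markers, at 16.9 to 428 CPM, were not separated from them. Ikbkb, the deleted gene, read 108 and 110 CPM in microglia-like nuclei of the Ikbkb-/- mice, below the 132 to 154 CPM of Ikbkb+/+;P301S+ mice, but the counts cover the whole gene and not the deleted part alone. In IkbkbCA;P301S+ mice it read 163 and 147 CPM, which overlaps Ikbkb+/+;P301S+ mice and the 126 to 157 CPM of Ikbkb+/+ mice, so that the counts do not show the active allele. The mouse Mapt counts do not test for the human transgene.

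Alpk1 and Tifa each had higher levels in the P301S-carrying mice in some classes of nuclei. Alpk1 was about 2.5 times as high in excitatory neuron-like nuclei, where Tifa was no higher. Tifa was about 1.95 times as high in astrocyte-like nuclei, where Alpk1 had a lower mean, with a ratio of 0.813. Both had higher means in microglia-like nuclei, with ratios of 3.103 for Tifa and 1.997 for Alpk1. There Alpk1 overlapped between the groups and Tifa did not. For Ikbkb+/+;P301S+ mice alone, without the IkbkbCA mice, the ratios were 3.09 for Tifa and 1.62 for Alpk1. In oligodendrocyte precursor-like nuclei the Alpk1 ratio was 1.96, with overlap between the groups. The Tifa ratio there was 1.26, also with overlap, but its fitted log2 fold change was -0.002. The SE of Tifa in the other contrasts of this class was 0.41 to 0.51. Within the floxed Ikbkb line that Tifa ratio was 0.999, and within the active IKKβ line 1.82.

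Alpk1 in excitatory neuron-like nuclei read 7.37, 7.41, 9.24 and 9.97 CPM in the 4 Ikbkb+/+ mice. It read 17.1, 18.1 and 19.1 CPM in Ikbkb+/+;P301S+ mice, 22.0 and 21.7 CPM in Ikbkb-/-;P301S+ mice and 23.6 and 27.9 CPM in IkbkbCA;P301S+ mice. The Ikbkb state of a group is that of Cx3cr1-expressing cells such as microglia. Against Ikbkb+/+;P301S+ mice the log2 fold change here was 0.51 ± 0.13 (SE) in IkbkbCA;P301S+ mice (edgeR, adjusted p = 0.826). In Ikbkb-/-;P301S+ mice it was 0.28 ± 0.13 (adjusted p = 0.58). All 7 P301S-carrying mice lay above all 4 others. The same separation held for 0.294% of the 18037 genes tested in these nuclei. The fitted log2 fold change of all P301S-carrying over Ikbkb+/+ mice was 1.35 ± 0.10 (SE), and each value rests on 325 to 1171 UMIs. Within the floxed Ikbkb line the ratio of means was 2.67 (2 against 4 mice) and within the active IKKβ line 2.45 (2 against 3 mice). The 3 clusters that make up the class each separated in the same way, with unscaled CPM of 4.47 to 7.92 against 11.2 to 22.1, of 9.99 to 14.4 against 23.6 to 35.5, and of 4.12 to 9.59 against 14.97 to 27.7.

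The other neurons held less Alpk1. In inhibitory neuron-like nuclei it read 1.15 to 2.48 CPM in Ikbkb+/+ mice and 2.27 to 6.40 CPM in P301S-carrying mice, ranges that overlap between breeding lines but not within them. Within the floxed line it read 1.37 and 1.40 against 2.27 to 4.83 CPM, and within the active IKKβ line 1.15 and 2.48 against 3.24 to 6.40 CPM. The share of all genes that separate within a line was not computed. In striatal neuron-like nuclei it read 0 to 1.73 CPM (23 UMIs in all) against 1.91 to 3.94 CPM (164 UMIs), with no overlap, as in 0.285% of genes tested there. These levels rest on few molecules, and the part of free RNA in them was not tested.

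In glia Alpk1 varied more. Astrocyte-like nuclei had the highest mean level of any class, 192 ± 35.9 CPM (SD, n = 11). They read 198, 198, 247 and 227 CPM in Ikbkb+/+ mice. The P301S-carrying mice read 174, 159 and 215 (Ikbkb+/+), 138 and 153 (Ikbkb-/-) and 232 and 168 CPM (IkbkbCA). None lay above the highest Ikbkb+/+ mouse, the ratio of means was 0.813 and the fitted log2 fold change -0.32 ± 0.11 (SE). Within the floxed line (2 against 4 mice) every P301S-carrying mouse was lower, at 198 and 198 against 138 to 174 CPM. Within the active IKKβ line the ranges overlapped, at 227 and 247 against 168 to 232 CPM. Oligodendrocyte-like nuclei went from 1.62 to 3.69 CPM to 2.62 to 7.66 CPM, and oligodendrocyte precursor-like nuclei from 8.41 to 12.2 CPM to 11.8 to 29.3 CPM, both with overlap. Fibroblast-like and mural-like nuclei, next in mean level to astrocytes at 123 ± 38.8 and 131 ± 31.6 CPM (SD, n = 11), did not differ from each other beyond their spread, and their fitted log2 fold changes were -0.13 and -0.01. Below them came microglia-like nuclei (57.7 ± 30.8 CPM), then excitatory neuron-like (16.7 ± 7.13) and oligodendrocyte precursor-like nuclei (16.6 ± 7.29), which did not differ.

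**Figure D1:**
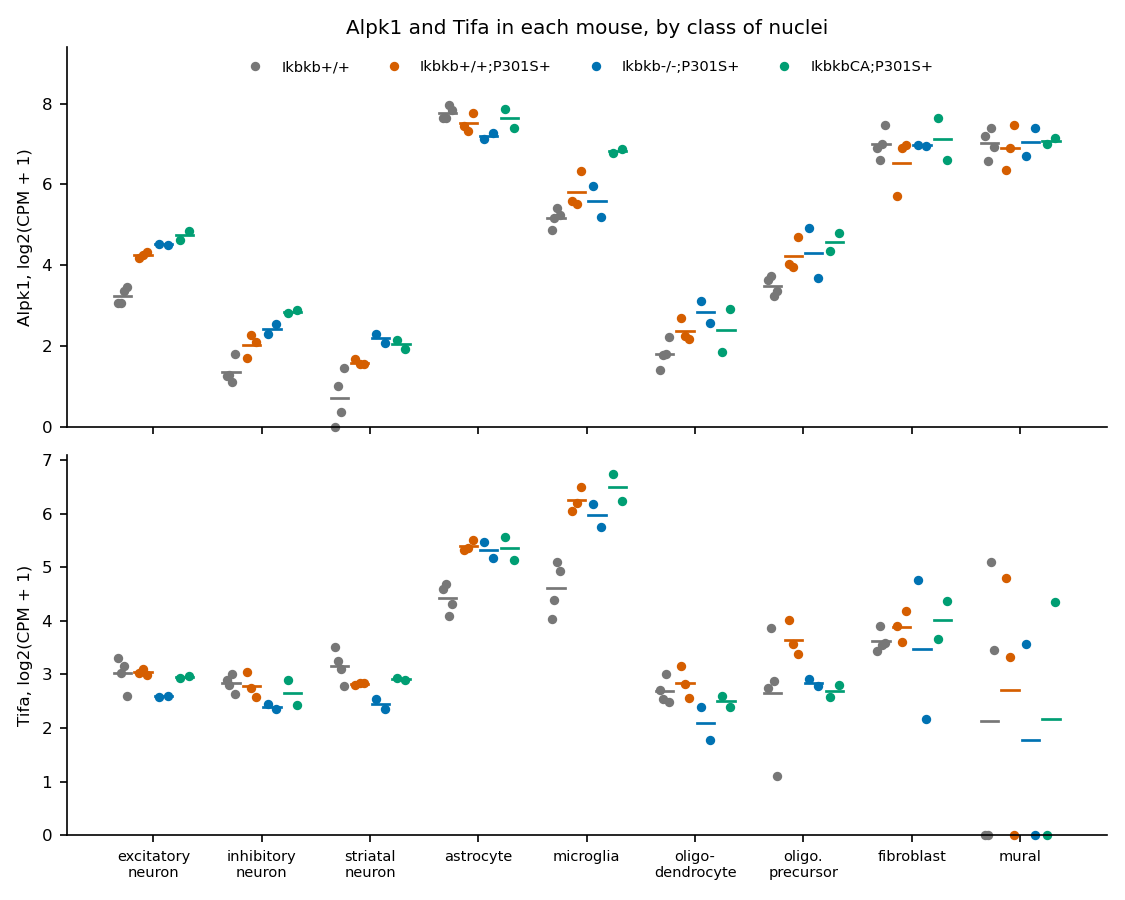
Level of Alpk1 (top) and Tifa (bottom) on the scale log2(CPM + 1) in 9 classes of nuclei, with 1 point per mouse and a short line at each group's mean on this scale. Alpk1 points of P301S-carrying mice lie above the Ikbkb+/+ points in excitatory neuron-like but not astrocyte-like nuclei, and Tifa points do so in astrocyte-like and microglia-like nuclei but not in excitatory neuron-like nuclei.

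Tifa was read from few molecules. In microglia-like nuclei it read 15.5, 20.02, 33.4 and 29.5 CPM in the 4 Ikbkb+/+ mice, from 6 to 21 UMIs each. It read 65.4, 72.4 and 90.1 CPM in Ikbkb+/+;P301S+ mice, 71.9 and 53.2 CPM in Ikbkb-/-;P301S+ mice and 107 and 74.7 CPM in IkbkbCA;P301S+ mice. The 7 P301S-carrying mice all lay above the 4 others, a separation that 0.648% of the 8951 genes tested in these nuclei also showed. The fitted log2 fold change was 1.64 ± 0.25 (SE) for Ikbkb+/+;P301S+ mice and 1.61 ± 0.22 for all P301S-carrying mice. The ratio of means was 3.70 within the floxed Ikbkb line and 2.88 within the active IKKβ line.

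In astrocyte-like nuclei Tifa read 23.1, 24.9, 16.0 and 18.8 CPM in Ikbkb+/+ mice. It read 38.9, 40.1 and 44.5 CPM in Ikbkb+/+;P301S+ mice, 43.4 and 35.0 CPM in Ikbkb-/-;P301S+ mice and 46.8 and 34.3 CPM in IkbkbCA;P301S+ mice. Again no P301S-carrying mouse overlapped the others, as for 0.299% of the 12387 genes tested, and the fitted log2 fold change was 0.98 ± 0.14 (SE). Microglia markers summed to 42.1 to 52.3 CPM in the astrocyte-like nuclei of Ikbkb+/+ mice and 42.7 to 74.8 CPM in those of P301S-carrying mice, and their part in the Tifa values was not tested.

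In neurons Tifa was not higher. Excitatory neuron-like nuclei read 8.92, 7.12, 7.96 and 5.01 CPM in Ikbkb+/+ mice and 4.997 to 7.57 CPM in P301S-carrying mice, from 167 to 393 UMIs per mouse. The ranges overlap, with a fitted log2 fold change of -0.22. Inhibitory neuron-like nuclei read 5.25 to 7.02 against 4.12 to 7.25 CPM. Striatal neuron-like nuclei read 5.89 to 10.5 against 4.14 to 6.59 CPM, the class with the lowest ratio of means among the neurons (0.712). Oligodendrocyte-like nuclei read 4.61 to 7.08 against 2.44 to 7.96 CPM. The order of the class means, from microglia-like (57.5 ± 29.7 CPM, SD, n = 11) through astrocyte-like (33.2 ± 10.8) to the neurons and oligodendrocytes, separates astrocytes from neurons by more than their spread. Microglia and astrocytes overlapped in Ikbkb+/+ mice (15.5 to 33.4 and 16.0 to 24.9 CPM) but not in P301S-carrying mice (53.2 to 107 and 34.3 to 46.8 CPM), and the neuron and oligodendrocyte classes did not differ beyond their spread. Ap1ar, which overlaps the end of Tifa, had log2 fold changes of -0.03 in microglia-like and 0.06 in astrocyte-like nuclei.

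**Figure D2:**
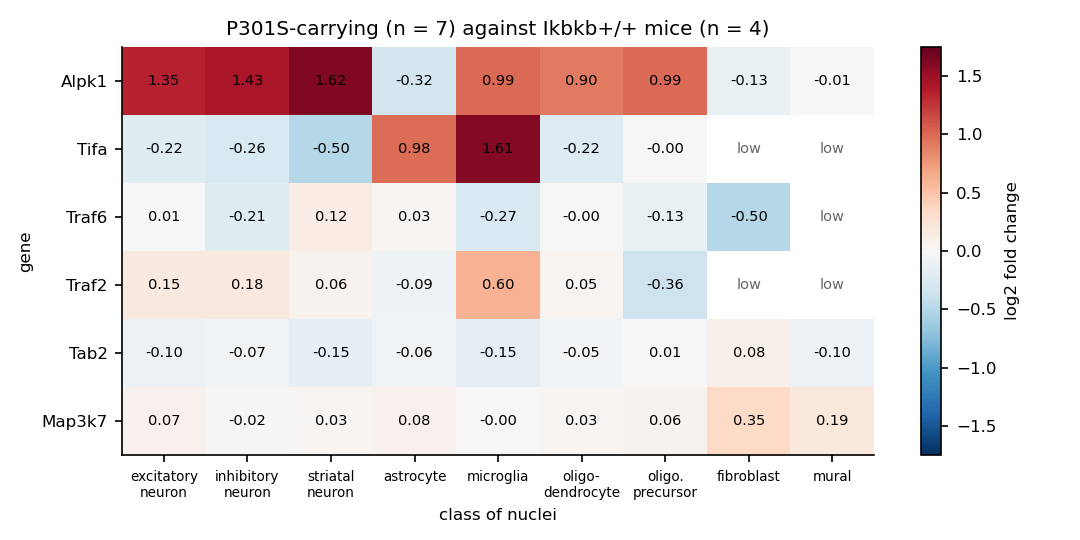
Fitted log2 fold change of the 6 genes in each class of nuclei for the 7 P301S-carrying against the 4 Ikbkb+/+ mice; red is higher with P301S, blue lower, and "low" marks genes under the count filter. Alpk1 is 1.35 in excitatory neuron-like and -0.32 in astrocyte-like nuclei, where Tifa is -0.22 and 0.98.

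The change of Ikbkb was examined for both genes, with p-values that do not allow for how the 2 genes were chosen. In microglia-like nuclei of Ikbkb-/-;P301S+ against Ikbkb+/+;P301S+ mice the log2 fold change was -0.28 ± 0.24 (SE) for Tifa (edgeR quasi-likelihood test, adjusted p = 0.715) and -0.26 ± 0.26 for Alpk1 (adjusted p = 0.769). None of the 6 members was called, and neither was any other gene: 0% of 8951 passed, with 908 reaching an unadjusted p of 0.05, and DESeq2 called 0 as well. With 2 mice in the Ikbkb-/- group these intervals are wide, and they do not show that Tifa and Alpk1 were alike in the 2 groups. In IkbkbCA;P301S+ mice Alpk1 read 109 and 117 CPM against 47.1, 44.4 and 80.0 CPM in Ikbkb+/+;P301S+ mice and 28.3, 34.6, 41.8 and 36.5 CPM in Ikbkb+/+ mice. Both mice lay above every other mouse, as in 4.28% of the 8951 genes tested, and the Ikbkb-/- mice read 61.2 and 35.5 CPM. The log2 fold change over Ikbkb+/+;P301S+ was 0.87 ± 0.22 (SE), which missed the threshold (edgeR, adjusted p = 0.0576). Without the Ikbkb+/+;P301S+ mouse of the active IKKβ line, the 80.0 CPM mouse, the change was 1.29 and passed (adjusted p = 0.00512), but that fit sets 2 mice of the active IKKβ line against 2 of the floxed line, so that line and active IKKβ cannot be told apart in it. With breeding line as a covariate and all mice kept, the change was 0.59 (adjusted p = 0.449). Over all P301S-carrying mice the Alpk1 change was 0.99 ± 0.21, described without a test, and the ratio of means was 1.496 within the floxed Ikbkb line and 2.60 within the active IKKβ line. Tifa in IkbkbCA;P301S+ mice did not pass (log2 fold change 0.21 ± 0.22, adjusted p = 0.939). These comparisons and the one with Ikbkb+/+ mice share the 3 Ikbkb+/+;P301S+ mice. Alpk1 and Tifa were chosen for being higher in P301S mice, and that choice can shift changes measured from these 3 mice downward.

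Of the 4 signalling proteins downstream, Traf2 alone was called in a contrast of microglia-like nuclei. Traf2, a ubiquitin ligase adaptor shared with the TNF receptors, read 57.1 and 53.1 CPM in IkbkbCA;P301S+ mice. It read 23.5, 16.4 and 29.4 CPM in Ikbkb+/+;P301S+ mice, 22.0 and 21.7 CPM in Ikbkb-/-;P301S+ mice and 25.8, 16.4, 23.0 and 18.3 CPM in Ikbkb+/+ mice. Both IkbkbCA mice lay above all 9 others, again as in 4.28% of genes. The log2 fold change over Ikbkb+/+;P301S+ mice was 1.17 ± 0.25 (edgeR, adjusted p = 0.0142), in a contrast that called 1.5% of 8951 genes, 83 higher and 51 lower. The call was lost with DESeq2 (adjusted p = 0.128), with breeding line as a covariate (0.113), with doublets kept (0.0778) and without any of 3 single mice, while the change stayed between 0.99 and 1.49. Mural cell markers, 8 genes of which 1 was at 0, summed to 271 to 340 CPM in the microglia-like nuclei of IkbkbCA;P301S+ mice and 99.6 to 167 CPM in the other groups. Microglia markers summed to 7369 to 8367 CPM in those of IkbkbCA;P301S+ mice and 8680 to 10872 CPM in the other groups. The part of these differences in the Traf2 and Alpk1 values, and in those of the list genes below, was not tested.

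Traf6, the ubiquitin ligase that Tifa binds, read 43.8, 54.6, 48.1 and 47.8 CPM in microglia-like nuclei of Ikbkb+/+ mice and 23.5, 49.3 and 40.7 CPM in those of Ikbkb+/+;P301S+ mice. The groups overlap, and the log2 fold change was -0.30 ± 0.23 (edgeR, adjusted p = 0.79). Traf2 in the same comparison changed by 0.27 ± 0.29 (adjusted p = 0.87). Tab2, the ubiquitin-binding adaptor, read 247, 289, 249 and 308 against 280, 265 and 271 CPM, with a log2 fold change of -0.02 ± 0.14 (adjusted p = 0.988). Map3k7, the kinase TAK1, read 118, 85.6, 79.4 and 81.5 against 96.7, 92.1 and 84.7 CPM, with adjusted p = 1. None of the 4 was called in this contrast, which called 4 genes, 0.0447% of those tested. Tifa was among those 4, as its selection fixed. Over all P301S-carrying mice 0.413% of genes in microglia-like nuclei were called, and none of these 4 members (the lowest adjusted p, for Traf2, was 0.419). In excitatory neuron-like nuclei their log2 fold changes over all P301S-carrying mice ran from -0.10 for Tab2 to 0.15 for Traf2 (lowest adjusted p = 0.949), in a contrast that called 0.0444% of genes. In astrocyte-like nuclei 0% of genes were called in that contrast by edgeR, with 533 reaching an unadjusted p of 0.05, and the 4 members ran from -0.09 to 0.08. Outside microglia-like nuclei the lowest adjusted p of the 4 in any of the 116 tests over the 4 contrasts was 0.356, for Tab2 in astrocyte-like nuclei of Ikbkb-/-;P301S+ mice.

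Other genes of the route to NF-κB were taken from a list of 30. It was drawn up with earlier results of these data known, so the choice may have shaped the counts and medians below. It held adaptors, ubiquitin enzymes, feedback inhibitors, NF-κB subunits and kinases, among them IκB kinase subunits and MAP kinases. Of the 30 genes, 27 were tested in microglia-like nuclei. None was called in the P301S or the Ikbkb-/- contrast, and 3 were higher and 0 lower in IkbkbCA;P301S+ mice, contrasts that called 0.0447%, 0% and 1.5% of the 8951 genes tested. Tnip1, an inhibitor that binds ubiquitin with A20, read 153 and 159 CPM in IkbkbCA;P301S+ mice against 31.4, 24.7 and 45.4 CPM in Ikbkb+/+;P301S+ mice, so that its log2 change was 2.09 ± 0.23 (edgeR, adjusted p = 1.17e-05). Birc3 (cIAP2), a ubiquitin ligase that joins Traf2, read 169 and 157 against 44.4, 54.3 and 79.4 CPM (1.35 ± 0.23, adjusted p = 0.00183). Traf3, which restrains the non-canonical route, read 523 and 537 against 167, 207 and 306 CPM (1.17 ± 0.21, adjusted p = 0.00311). For all 3, as for Traf2, the 2 mice with active IKKβ stood above the 9 others, the arrangement that 4.28% of genes showed. The median log2 fold change of the 27 genes was 0.14 in this contrast, against -0.0023 for all genes. It was -0.24 in the Ikbkb-/- contrast (all genes -0.017), 0.024 in the P301S contrast (-0.0056) and -0.055 over all P301S-carrying mice (-0.014). In the contrast of all P301S-carrying mice, which includes the 2 IkbkbCA;P301S+ mice, Tnip1 was also called (1.07 ± 0.23, edgeR, adjusted p = 0.0411). Its level was 33.8 ± 10.6 CPM (SD, n = 3) in Ikbkb+/+;P301S+ mice and 25.4 ± 6.40 (SD, n = 4) in Ikbkb+/+ mice. Ikbkb-/-;P301S+ mice read 32.7 and 15.8 CPM. Both of these P301S-carrying groups overlapped the Ikbkb+/+ mice, at 18.2 to 33.4 CPM.

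A parallel list of 20 receptors and adaptors of other innate routes gave 13 tested genes and 1 called in the IkbkbCA contrast, beside 1.5% of all genes. This was Tnfrsf11a (RANK), a receptor that signals through Traf6. It fell from 274, 329 and 286 CPM in Ikbkb+/+;P301S+ mice to 170 and 197 CPM in IkbkbCA;P301S+ mice (log2 fold change -0.70 ± 0.18, edgeR, adjusted p = 0.0477). Ikbkb+/+ mice read 306 and 286 CPM in the floxed line and 234 and 193 CPM in the active IKKβ line, so that one of them lay below an IkbkbCA mouse, and Ikbkb-/-;P301S+ mice read 349 and 284 CPM. The lists were drawn up with earlier results of these data known.

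**Figure D3:**
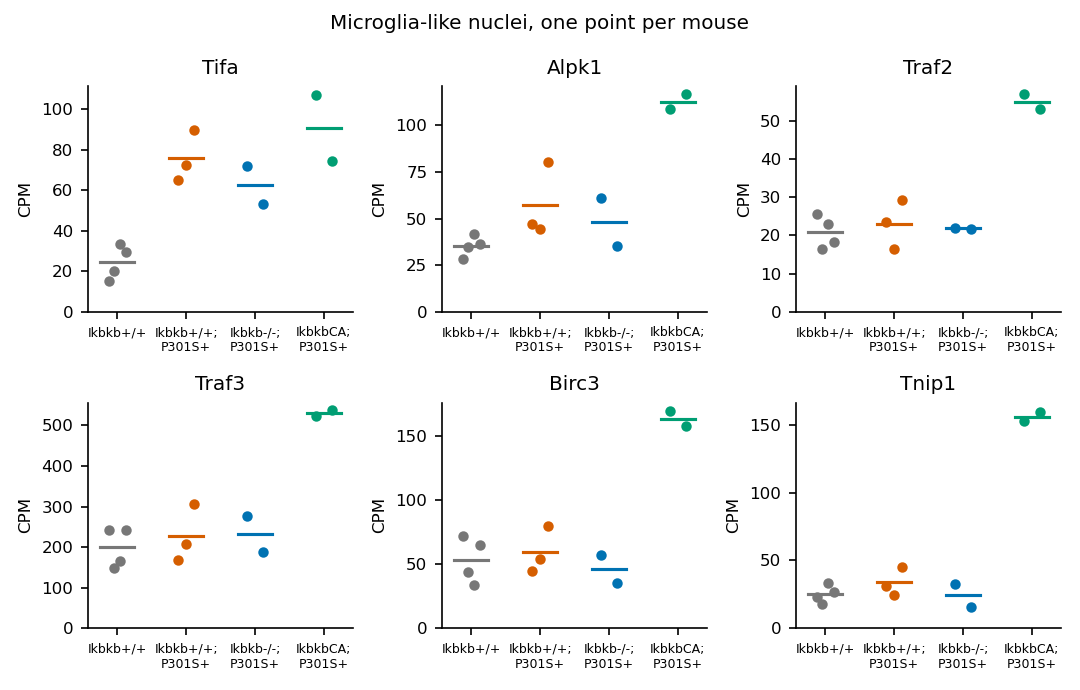
CPM of 6 genes in microglia-like nuclei, with 1 point per mouse and a line at each group's mean; the axes start at 0. The 2 IkbkbCA;P301S+ mice stand above the other 9 for Alpk1, Traf2, Traf3, Birc3 and Tnip1, while for Tifa all 7 P301S-carrying mice stand above the 4 Ikbkb+/+ mice.

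Alpk1 and Tifa were picked partly for being neighbours, so the genes around them were examined in the same contrast. In excitatory neuron-like nuclei 8 genes were called among P301S-carrying against Ikbkb+/+ mice, and 6 of them lie on chromosome 3, including Alpk1. Alpk1 was chosen for this difference. Without Alpk1 and Tifa the calls were 5 of 905 tested chromosome 3 genes, 0.552%, and the 5 lie within 20 Mb of Tifa. The 2 calls elsewhere were Haus7 on chromosome X and Prn on chromosome 2. Prn, at the prion locus, read 0.635 to 0.961 CPM in Ikbkb+/+ mice and 1.88 to 4.08 CPM in P301S-carrying mice. Inhibitory neuron-like nuclei also separated the groups for Haus7 (2.28 to 4.11 against 5.66 to 9.04 CPM) and Prn (0.176 to 1.05 against 1.16 to 3.03 CPM). The same held for 0.487% of genes tested there, and both genes overlapped in the other classes. The transgene uses the mouse prion promoter, and its part in the Prn counts was not tested. In excitatory neuron-like nuclei 0.0117% of 17130 genes of other chromosomes were called, and 0 of the 675 genes of the rest of chromosome 3. Genes are named here because they were called. Gm42997 and Ndst4 fall under the rule for neighbours within 5 Mb, and the others were picked after their values were seen.

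The nearest called neighbours were few. Distances are from the start of Tifa, negative towards lower coordinates. Of 49 tested genes within 5 Mb, 1 was called in excitatory neuron-like nuclei: Gm42997, a lincRNA at 2.94 Mb (chr3:130730460-130771643), at 2.01 to 2.74 CPM in Ikbkb+/+ mice and 1.11 to 1.61 CPM in P301S-carrying mice (log2 fold change -0.94 ± 0.14, edgeR, adjusted p = 0.0471). This call was lost with breeding line or age as a covariate and when any single mouse was left out. Within 2 Mb none of 14 was called. Rwdd3, a regulator of SUMO conjugation at -6.62 Mb (chr3:121155398-121171695), read 4.38 to 6.33 against 8.23 to 10.9 CPM (0.83 ± 0.11, adjusted p = 0.0212). Its groups did not overlap in inhibitory neuron-like (6.45 to 11.2 against 11.7 to 14.3 CPM), striatal neuron-like (5.24 to 9.78 against 10.6 to 17.4 CPM) and oligodendrocyte-like nuclei (5.0004 to 8.37 against 9.57 to 17.4 CPM) either, and overlapped in the other classes. All P301S-carrying mice lay above all others for 0.487%, 0.285% and 0.215% of the genes tested in these 3 classes. In excitatory neuron-like nuclei the median absolute log2 fold change was 0.19 within 2 Mb, 0.16 within 5 Mb and 0.09 on other chromosomes. The median within 5 Mb was above that of other chromosomes in 7 of the 9 classes, among them microglia-like (0.18 against 0.15) and astrocyte-like nuclei (0.14 against 0.11). It was below in striatal neuron-like (0.086 against 0.11) and oligodendrocyte precursor-like nuclei (0.097 against 0.12).

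The lincRNAs about 13 Mb from Tifa behaved differently, and are printed as UMIs because one group was near 0. Gm43049 (chr3:140692038-140760704) had 8 UMIs over the 4 Ikbkb+/+ mice and 2693 over the 7 P301S-carrying mice in excitatory neuron-like nuclei, with each P301S-carrying mouse between 7.51 and 14.4 CPM. Gm32754 (chr3:140904998-140917459) had 5 and 273 UMIs, and 4930590L14Rik (chr3:140951876-140953247) had 1 and 451. Gm43049 was also called in inhibitory (1 and 760 UMIs), striatal (2 and 691) and oligodendrocyte precursor-like nuclei (0 and 59 UMIs), in contrasts that called 0.00641%, 0.0219% and 0.0198% of genes. It was detected in astrocyte-like (0 and 32 UMIs) and microglia-like nuclei (0 and 21), where it was under the count filter. All 3 lincRNAs separated the groups in the excitatory, inhibitory and striatal classes, as did 0.294%, 0.487% and 0.285% of genes tested there in the same direction. Among these classes Alpk1 separated them in the excitatory and striatal ones, and in the inhibitory one within each breeding line, and Tifa in none. In astrocyte-like and microglia-like nuclei Gm43049 separated the groups, while Gm32754 and 4930590L14Rik were at 0 in at least 1 P301S-carrying mouse.

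Oligodendrocyte-like nuclei had 1 call (0.00769% of genes), also near Tifa. Ndst4, a heparan sulfate sulfotransferase gene at -2.39 Mb (chr3:125404076-125728899), read 15.8 to 44.7 CPM in Ikbkb+/+ mice and 247 to 351 CPM in P301S-carrying mice (log2 fold change 3.19 ± 0.19, edgeR, adjusted p = 3.07e-07). In excitatory neuron-like nuclei it read 24.9 to 137 against 11.1 to 80.5 CPM (adjusted p = 0.949), and it was not called in microglia-like or astrocyte-like nuclei. In astrocyte-like nuclei, in which Tifa did not overlap between the groups, 0 of 34 tested neighbours within 5 Mb were called, in a contrast that called 0% of all genes, so that this count says nothing about the neighbours.

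In microglia-like nuclei Tifa separated the groups and Alpk1 had a higher mean. Of 37 calls 33 lay on other chromosomes, which hold 8512 of the 8951 genes tested, and 0.388% of those 8512 were called. With 0.413% of all genes called in this class, counts as small as the next ones say nothing about the neighbours. Within 5 Mb 0 of 18 tested genes were called, and within 20 Mb 1 of 106 was (0.943%). This was Bank1, a scaffold protein of immune receptor signalling at 8.54 Mb (chr3:136053363-136326066), at 419 to 512 CPM in Ikbkb+/+ mice and 92.7 to 333 CPM in P301S-carrying mice (log2 fold change -1.07 ± 0.21, edgeR, adjusted p = 0.0284). Ppm1l, a protein phosphatase gene at -58.5 Mb (chr3:69316861-69560802), was also called (-0.61 ± 0.12, adjusted p = 0.0255). Both were named after their values were seen, and the other 2 calls were Alpk1 and Tifa, chosen on this contrast.

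**Figure D4:**
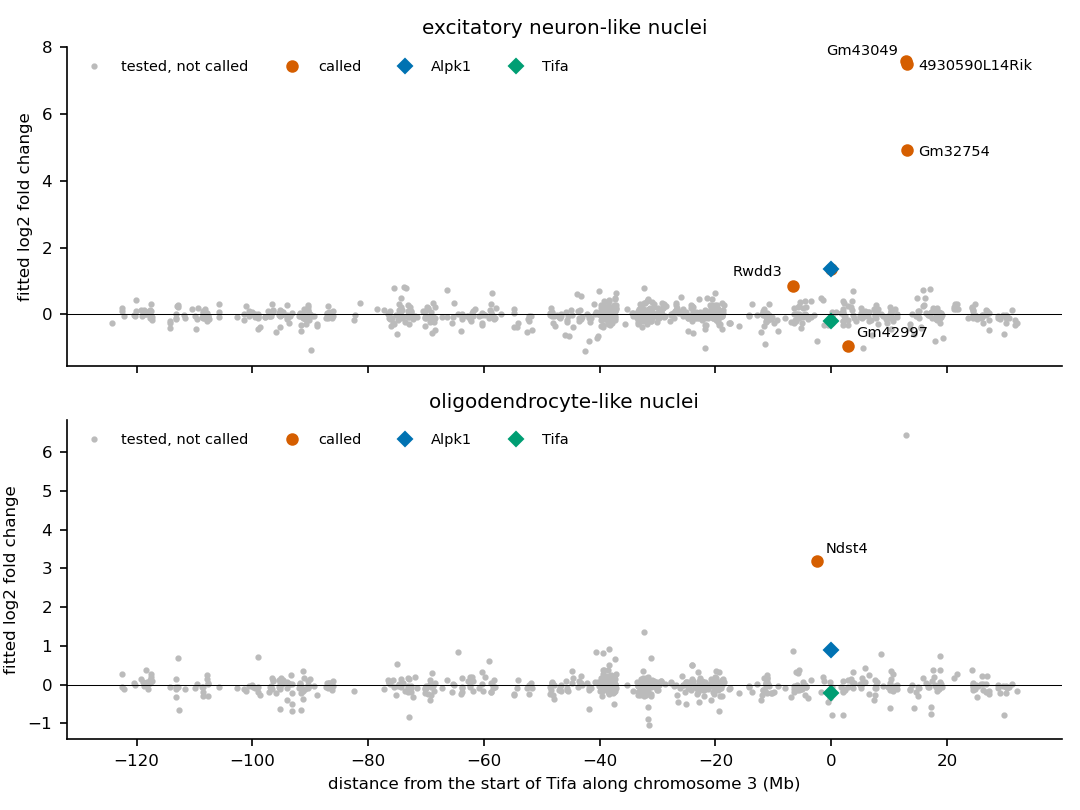
Fitted log2 fold change of P301S-carrying over Ikbkb+/+ mice for tested genes of chromosome 3 against their distance from the start of Tifa in Mb, in excitatory neuron-like (top) and oligodendrocyte-like nuclei (bottom); orange points were called, and diamonds are Alpk1 and Tifa. Called genes lie within 20 Mb of Tifa, and the 3 lincRNAs near 13 Mb have fitted values of 4.92 to 7.58 that rest on a group near 0.

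The site of transgene insertion is not given in the sources used here. All 7 P301S-carrying mice inherit the transgene together with the DNA beside it, so inherited differences near Alpk1 and Tifa and a response to tau cannot be told apart by genotype. The groups did not overlap in Alpk1, Tifa, Rwdd3, Ndst4 and Gm42997 in some classes of nuclei and overlapped in others, and the difference between classes was not tested. Within each of the breeding lines the groups did not overlap in Alpk1 in excitatory, inhibitory and striatal neuron-like and microglia-like nuclei, or in Tifa in microglia-like and astrocyte-like nuclei. Each line has only 2 Ikbkb+/+ mice, and groups this small separate easily. The share of all genes that separate within a line was not computed, so these separations are a description. For Alpk1 in microglia-like nuclei the levels were 28.3 and 34.6 against 35.5 to 61.2 CPM in the floxed line and 36.5 and 41.8 against 80.0 to 117 CPM in the active IKKβ line.

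Genes whose levels were most like those of the members were found by correlation of log2 CPM over the 11 mice, as a description over mice of 4 genotypes. In microglia-like nuclei Tifa was closest to Soat1 (r = 0.93), Lat2 (0.91), Plagl2 (0.91), 4931406P16Rik (0.90) and Slc2a1 (0.90) of 8950 genes. Alpk1 was closest there to Eri3 (0.96), Tank (0.94), Znrf2 (0.94), Cd300lf (0.94) and Rxrg (0.94), and the correlation of Alpk1 with Tifa was 0.80. In excitatory neuron-like nuclei Alpk1 was closest to Mta3 (0.96), Mcm10 (0.93), 4930590L14Rik (0.93), Gm43049 (0.92) and Haus7 (0.91) of 18036 genes, while its correlation with Tifa was -0.40. Alpk1 and Tifa were chosen for the difference between P301S-carrying and other mice, so genes with that difference, including the lincRNAs near 0 without the transgene, rank high here through the choice, and no correlation within a group was computed.

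Summing every barcode of a library, without classes, gave smaller differences. Tifa then read 5.94 to 8.80 CPM in Ikbkb+/+ mice and 6.53 to 11.1 CPM in P301S-carrying mice, a log2 ratio of means of 0.20, against 1.63 in microglia-like nuclei. Alpk1 read 11.5 to 19.3 against 16.5 to 28.3 CPM, a log2 ratio of 0.55, against 1.33 in excitatory neuron-like nuclei. Both genes overlapped between the groups at that level across both breeding lines. Within the lines Alpk1 did not, at 11.5 and 12.2 against 16.5 to 22.9 CPM in the floxed line and 19.0 and 19.3 against 24.9 to 28.3 CPM in the active IKKβ line. Tifa overlapped in the floxed line (7.42 and 8.80 against 6.53 to 8.51 CPM) but not in the active IKKβ line (5.94 and 8.33 against 9.11 to 11.1 CPM). How many of all genes separate within a line at this level was not computed.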

How the data were processed

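Single-nucleus libraries from the cortex of 11 mice were made with the 10x 3′ kit from nuclei sorted on DAPI. The authors deposited raw UMI counts per gene and barcode from Cell Ranger 3.1.0 on mm10, with unspliced transcripts counted, and the submitters' processing notes also name Seurat 3.0. The members and lists were chosen with earlier results of these data known.

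Limits of 300 and 8000 genes and of 5% mitochondrial UMIs were applied to the barcodes. Nuclei most like simulated doublets (8.3%) were removed, which left 103194 of 114118 barcodes. Nuclei were clustered on 2000 variable genes and 15 components (leidenalg 0.10.2, resolution 0.1, 15 clusters). A cluster was named from at least 3 markers raised 2-fold over the median of the other clusters. One cluster that met this was left unnamed because its UMI counts were low for its libraries and no marker was among its 10 leading genes. Classes under 20 nuclei in a mouse were not tested.

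Counts were summed per mouse and class and tested with edgeR 4.0.16 in R 4.3.3 (TMM, filterByExpr, quasi-likelihood test, 4 genotype terms, all 11 mice). Calls needed a p below 0.05 after Benjamini-Hochberg adjustment over all genes tested and an absolute log2 fold change over 0.1. SEs are the log2 fold change over the root of F, which is unreliable for very small changes. Intervals cover the spread between mice only, and with 2 mice in a group they are wide. The scripts were tested on simulated data. Coordinates are from GENCODE M21 on GRCm38. DESeq2 1.42.0, other filters, covariates, samples and windows were alternatives. Genes named by rule were the 6 members, list genes called in microglia-like nuclei, called neighbours within 5 Mb of Tifa and the 5 genes most like Tifa or Alpk1. Ikbkb and Mapt were label checks, and Ap1ar was named for its overlap with Tifa. Other called genes were named after their values were seen, among them Rwdd3, Gm32754, Prn, Bank1 and Ppm1l.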

Additional observations from a re-analysis of the deposited data

Results flagged for a closer look

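Tifa lay on opposite sides of the Ikbkb+/+ mean in different classes of nuclei. Every P301S-carrying mouse lay above the Ikbkb+/+ mean in astrocyte-like nuclei (ratio of means 1.95) and microglia-like nuclei (3.103), and every one lay below it in striatal neuron-like nuclei (0.712). In the last the ranges overlapped when the breeding lines were pooled. Within the floxed Ikbkb line they did not, at 8.50 and 10.5 against 4.14 to 6.21 CPM (ratio 0.559). Within the active IKKβ line they did, at 5.89 and 7.56 against 6.14 to 6.59 CPM (ratio 0.950). The difference between the classes was not tested, since Tifa was chosen on this contrast.

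Among the 4 Ikbkb+/+ mice, 3 single values stood far from the others by Dixon's criterion, of 54 member and class groups examined, and chance flags about 1 in 20. Map3k7 in microglia-like nuclei of mouse 1 read 118 CPM against 79.4 to 85.6 CPM. Map3k7 in oligodendrocyte precursor-like nuclei of mouse 2 read 62.4 CPM against 51.5 to 52.7 CPM. Traf6 in inhibitory neuron-like nuclei of mouse 3 read 22.6 CPM against 16.0 to 17.0 CPM.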

How the results depend on the processing

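Alpk1 in excitatory neuron-like nuclei kept its direction, with log2 fold changes of 1.29 to 1.44 over all 19 alternatives, and so did Tifa in microglia-like nuclei for P301S, with 1.41 to 1.78. Both fell when every barcode of a library was summed, to log2 ratios of 0.55 and 0.20. Without the Ikbkb+/+;P301S+ mouse of the active IKKβ line, Alpk1 in microglia-like nuclei was 0.36 higher in P301S in place of 0.79.

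The count of genes called for P301S in microglia-like nuclei (4) was 132 without a filter on low counts, 27 with breeding line as a covariate, 2 with doublets kept, 10 with the compared groups only and 0 to 29 when mice were left out singly. The Ikbkb-/- count (0) was 51 without a filter, 2 with the compared groups only and 0 to 3 with mice left out. The IkbkbCA count (134) was 350 without a filter, 73 with line, 73 with doublets kept and 64 to 196 with mice left out. The excitatory count (8) was 22 by DESeq2, 5 with age as a covariate and 5 to 9 with mice left out. The 1 called neighbour of Tifa within 5 Mb became 0 within 2 Mb, 2 within 10 Mb and 5 within 20 Mb, and was 0 with line, with age, with the replicate block and when any mouse was left out.

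Mice with the same title number showed little correlation (mean r of deviations 0.014, lowest -0.094). Groups of 2 mice give opposite deviations, so this r cannot settle whether the mice are paired. In the active IKKβ line, Ikbkb+/+ and IkbkbCA;P301S+ mice were of the same age where they shared a title number. With that number as a replicate block the counts were 4, 0, 138 and 6 in the order above, and Alpk1 in IkbkbCA passed (0.93, adjusted p = 0.0393). Traf2 in IkbkbCA lost its call with DESeq2, line, doublets kept and without Ikbkb+/+;P301S+ mouse 2 (adjusted p = 0.113) or either IkbkbCA mouse (0.0929 and 0.0641), and Alpk1 in IkbkbCA passed without a filter (adjusted p = 0.00503) and without either Ikbkb-/- mouse (0.045 and 0.0426). Its adjusted p ran from 0.00503 to 0.449, and that of Traf2 from 0.0034 to 0.128.

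Changes of sign were confined to members that missed the threshold. For P301S, Map3k7 (0.0011) was -0.00068 with DESeq2 size factors, -0.014 with line, -0.0029 with age, -0.035 with the block, -0.16 with doublets kept, -0.00083 with the compared groups only and -0.050 to 0.14 with mice left out. Tab2 was 0.015 without a filter and -0.058 to 0.052 with mice left out, and Traf2 -0.064 to 0.44. For Ikbkb-/-, line gave Alpk1 0.057, Traf2 0.014 and Map3k7 -0.069, and age gave Tifa 0.15, Traf6 0.28, Traf2 0.15 and Map3k7 -0.20. Doublets kept gave Map3k7 -0.0059, and mice left out gave Alpk1 -0.79 to 0.17, Traf2 -0.34 to 0.17, Traf6 -0.25 to 0.13 and Map3k7 -0.34 to 0.24. For IkbkbCA, line gave Tifa -0.051 and Map3k7 0.098, and mice left out gave Tifa -0.078 to 0.43. In excitatory neuron-like nuclei age gave Traf6 -0.0047 and Map3k7 -0.00064, doublets kept gave Traf6 -0.013, and mice left out gave Traf6 -0.034 to 0.051 and Map3k7 -0.0074 to 0.16. The cause was not tested for any of these.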
